A study of Mus musculus with 6 samples.

Results

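Toll-like receptors were examined in bone marrow-derived macrophages (BMDMs) grown together with ID8, an ovarian cancer cell line of the mouse. The genes were chosen by symbol, and all 10 that were sought (Tlr1, Tlr2, Tlr3, Tlr4, Tlr5, Tlr6, Tlr7, Tlr8, Tlr9 and Tlr13) were among the 54532 genes of the deposited expression table. Before co-culture the ID8 cells had received 40 µM cisplatin, a DNA-crosslinking platinum drug, in 3 libraries, and phosphate-buffered saline (PBS) in the other 3. The marrow monocytes came from C57BL/6 mice 6 to 8 weeks old, and the libraries are named here by what the ID8 cells had received. ID8 is a single line, and whether the macrophages were separated from it before RNA was extracted is not stated. The labels do not say whether the 3 libraries of a group came from separate cultures or animals, so the p-values measure only the spread between these libraries.

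Toll-like receptors are membrane proteins that recognise microbial molecules, and some products of damaged cells, through a horseshoe of leucine-rich repeats. Members at the cell surface read lipids and proteins, and members in endosomes read nucleic acids. A cytoplasmic TIR domain then recruits adaptors, MyD88 for most members and TRIF for Tlr3 and for part of the Tlr4 signal, which lead to NF-κB and to interferon regulatory factors. Macrophages carry a broad set of these receptors, and Tlr13 belongs to mice and not to humans.

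Values are given as FPKM, in which fragments are divided by gene length and by sequencing depth, so that levels of different genes can be set side by side. Reads recovered from these values summed to between 15776238 and 17924686 per library. Within a group, Pearson's r between libraries (log2(FPKM + 1), across genes) was 0.984 to 0.989, and between groups it was 0.8715 to 0.877. The culture was not pure. The 17 listed ID8 and mesothelial genes summed to between 1348 and 1447 FPKM with PBS and to between 251 and 272 FPKM with cisplatin, while 10 macrophage genes went from 1514 to 1535 up to 4033 to 4185 FPKM and 6 B cell genes from 578 to 603 up to 1137 to 1167 FPKM. The 8 pan-leukocyte genes summed to between 1136 and 1184 FPKM with PBS and to between 1814 and 1864 FPKM with cisplatin. Csf1r, the receptor gene that defines the macrophage lineage, stood at 44.0 ± 0.62 and 84.5 ± 2.37 FPKM (SD, n = 3 each). The lists of neutrophil genes (4794 to 4952 with PBS, 8786 to 9032 FPKM with cisplatin), conventional dendritic cell genes (4.74 to 5.10 and 10.5 to 10.6 FPKM) and T and NK cell genes (10.3 to 12.0 and 14.3 to 16.2 FPKM) also summed to more with cisplatin, while that of plasmacytoid dendritic cells summed to less (505 to 570 and 363 to 365 FPKM) through Bst2 (393 ± 31.8 and 112 ± 7.17 FPKM, SD, n = 3 each), with 6 of its 8 genes higher. No listed marker was at 0 in all libraries, and the part of these cells in the results was not tested. In bulk RNA, fewer cells of a type and less RNA per cell cannot be told apart.

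All 5 endosomal receptors differed between the groups in FPKM as deposited, and so did Tlr1, Tlr2 and Tlr6 of the surface receptors. With cisplatin, Tlr7, Tlr8 and Tlr13 were 3.0, 4.05 and 2.41 times as high in mean FPKM, and Tlr3 had the largest log2 fold change of the members tested and fell. Tlr2 and Tlr4, the most abundant receptors with PBS, stood at 1.13 and 0.983 times their PBS level. Of the 10 members, 9 passed the filter on low values (at least 1 FPKM in at least 3 libraries). At an adjusted p under 0.05, 7 of these rose and 1 fell, whereas 32.9% of all 13441 tested genes rose and 35.1% fell. At the added threshold of a 2-fold change, 3 members were called higher and 1 lower, against 4.67% and 11.3% of all tested genes. The 3 calls (Tlr7, Tlr8 and Tlr13) were lost, to 0 members called higher by limma, when libraries were brought to equal levels of pan-leukocyte or of Y-linked genes, where 4 and 3 members were higher at an unadjusted p under 0.05, against 6.15% and 3.77% of all tested genes, and 4 and 5 lower, against 78.1% and 83%. The call of Tlr3 held in both. The groups did not overlap in 8 of the 9, with cisplatin higher in 7, while this was so of 72.4% of all tested genes, with cisplatin higher in 35.2%. The log2 fold changes of Tlr2, Tlr6 and Tlr9 turned negative under these scalings, as given with the values of each. The median log2 fold change of the 9 was 0.71, against -0.0011 over all tested genes, and turned to -0.062 and -0.25.

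**Figure D1:**
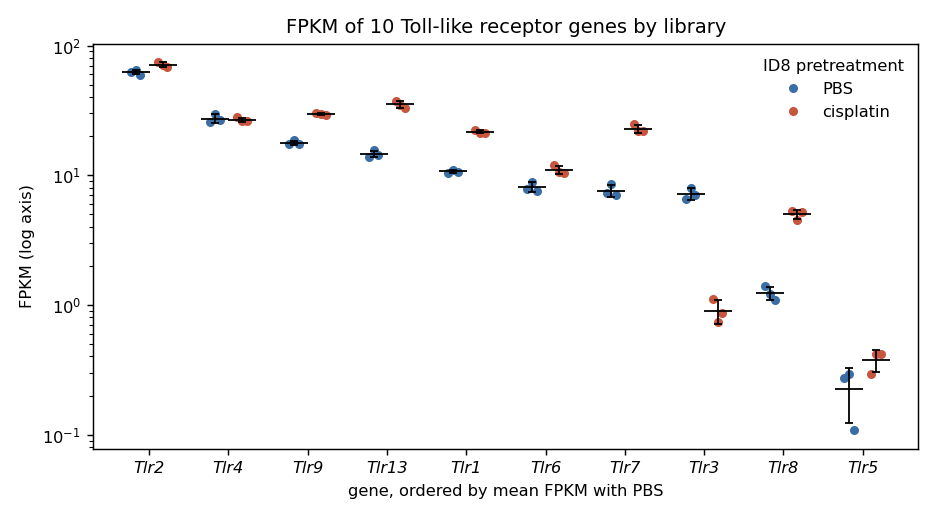
FPKM of the 10 Toll-like receptor genes on a log axis, each point a library (blue, PBS; red, cisplatin), with black bars for the mean and SD of 3 libraries. The groups lie apart for every gene but Tlr4 and Tlr5, Tlr3 is the only one of the separated genes that is lower with cisplatin, and Tlr7 goes from a mean of 7.6 to 22.8 FPKM.

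Tlr7 (ENSMUSG00000044583, chromosome X, 167304929 to 167330558, GRCm38) encodes an endosomal receptor for single-stranded RNA. It stood at 7.28, 8.51 and 7.01 FPKM in PBS replicates 1, 2 and 3, and at 24.7, 21.9 and 21.9 FPKM in the cisplatin replicates. Every cisplatin library was therefore more than 2-fold above every PBS library. Its log2 fold change was 1.47 (SE 0.081, 95% interval 1.28 to 1.66, adjusted p = 5.92e-06), the largest rise among the receptors on the log2(FPKM + 1) scale.

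Tlr8 (ENSMUSG00000040522, chromosome X, 167242696 to 167264329) is the neighbour of Tlr7 on the X chromosome and encodes a related receptor for RNA. It was the scarcer of the pair, with 1.39, 1.22 and 1.10 FPKM in the PBS libraries and 5.26, 4.50 and 5.23 FPKM in the cisplatin libraries. These levels rested on 88, 68 and 61 reads with PBS and on 321, 265 and 310 reads with cisplatin. The groups did not overlap, and the mean FPKM was 4.05 times as high with cisplatin. Its log2 fold change of 1.42 (adjusted p = 9.73e-06, SE 0.087) understates this ratio, because 1 is added to FPKM before the logarithm, and limma voom on the recovered reads gave 2.09 (adjusted p = 1.23e-09). Within a library, Tlr8 FPKM was 0.163 ± 0.024 of Tlr7 FPKM with PBS and 0.219 ± 0.018 with cisplatin (SD, n = 3 each), and every cisplatin library lay above every PBS library.

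Tlr13 (ENSMUSG00000033777, chromosome X, 106143204 to 106160493), which encodes the mouse receptor for bacterial ribosomal RNA, stood at 13.9, 15.6 and 14.4 FPKM with PBS. With cisplatin it reached 37.6, 34.9 and 33.2 FPKM, and no cisplatin library came near the PBS range. The log2 fold change was 1.21 (SE 0.062, 95% interval 1.07 to 1.36, adjusted p = 4.03e-06). Tlr7, Tlr8 and Tlr13 all lie on the X chromosome. The X-inactivation transcript Xist went from 42.7 ± 5.35 to 7.79 ± 0.19 FPKM (SD, n = 3 each). The 4 Y-linked genes summed to between 19.5 and 22.7 FPKM with PBS and to between 41.6 and 42.8 FPKM with cisplatin. Which cells the Xist reads came from, and whether Xist bears on these receptors, was not tested.

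Tlr9 (ENSMUSG00000045322, chromosome 9, 106222598 to 106226883), the receptor for unmethylated CpG DNA, had 17.4, 18.5 and 17.5 FPKM with PBS and 30.1, 29.7 and 29.2 FPKM with cisplatin. Its groups were well separated, with little spread within either. The log2 fold change of 0.71 (adjusted p = 6.63e-06, SE 0.040) fell short of 2-fold and turned to -0.062 (adjusted p = 0.28) and -0.25 (adjusted p = 0.00273) under the scalings by pan-leukocyte and by Y-linked genes. Tlr7 and Tlr9 are also expressed by B cells and plasmacytoid dendritic cells. The B cell gene Cd79a went from 63.9 ± 3.62 to 147 ± 6.34 FPKM, and Siglech, a plasmacytoid marker, from 1.69 ± 0.18 to 9.70 ± 0.11 FPKM (SD, n = 3 each). Of the 8 plasmacytoid genes listed, 6 were higher with cisplatin without overlap and 1, the interferon-inducible Bst2, was lower.

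Tlr3 (ENSMUSG00000031639, chromosome 8, 45395665 to 45411080), the endosomal receptor for double-stranded RNA, went against the other endosomal members. It stood at 6.57, 7.98 and 7.01 FPKM in the PBS libraries and at 1.12, 0.737 and 0.861 FPKM in the cisplatin libraries. Even the highest cisplatin library held 99 reads where the lowest PBS library held 566. Mean FPKM was 7.94 times as high with PBS, and the log2 fold change was -2.10 (SE 0.10, 95% interval -2.35 to -1.86, adjusted p = 3.36e-06). All 3 PBS libraries and cisplatin replicate 1 reached the filter of 1 FPKM. The fall held under both rescalings, with log2 fold changes of -2.64 and -2.77 under the scalings by pan-leukocyte and by Y-linked genes. Beside it, the ID8 keratin gene Krt19 went from 588 ± 28.8 to 51.1 ± 3.80 FPKM (SD, n = 3 each). Relative to the summed ID8 list, Tlr3 stood at 4.62, 5.92 and 4.85 per 1000 FPKM with PBS and at 4.45, 2.76 and 3.16 with cisplatin, so the groups lay apart here too, by much less. Which cells the Tlr3 reads came from was not tested. Gm45542, which overlaps Tlr3 on the opposite strand, was listed at 0 in all 6 libraries.

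Promoter sequences were set beside these changes, since several members moved together. RefSeq entries on GRCm38.p6 were found for 8 of the 10 members, and Tlr4 and Tlr7 were the exceptions. Each window of 250 bases before to 50 after the start was searched on both strands for the core of the interferon-stimulated response element, TTCNNNGAA (a STAT site), AGGAAGT (a PU.1 type site) and TGAGTCA (AP-1), which occur in 3.44%, 8.30%, 9.35% and 5.20% of all promoter entries. The 250 upstream bases are shown for Tlr8, a called member with a match, and for the Tlr6 entry that holds the interferon core, 5′ to 3′ on the minus strand, with matches in capitals. They lie at chrX:167264330-167264579 (Tlr8) and chr5:64959167-64959416 (Tlr6, within the annotated gene).
Tlr8: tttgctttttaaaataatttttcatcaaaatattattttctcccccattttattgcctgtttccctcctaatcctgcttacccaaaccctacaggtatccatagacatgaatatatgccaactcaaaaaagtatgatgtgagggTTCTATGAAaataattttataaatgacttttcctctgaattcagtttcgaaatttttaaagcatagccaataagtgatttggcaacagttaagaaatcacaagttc
Tlr6: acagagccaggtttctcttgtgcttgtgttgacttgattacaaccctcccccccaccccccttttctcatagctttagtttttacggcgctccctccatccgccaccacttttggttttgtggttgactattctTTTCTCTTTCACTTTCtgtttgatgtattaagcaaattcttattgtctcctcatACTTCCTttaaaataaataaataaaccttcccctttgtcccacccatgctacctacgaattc
The Tlr8 entry held a STAT site, and the Tlr6 entry shown held 2 overlapping interferon cores with a PU.1 type site after them. The other Tlr6 entry held 2 STAT sites and a PU.1 type site, the 2 Tlr1 entries a PU.1 type and a STAT site, and the Tlr9 entry a PU.1 type and an AP-1 site. No match was found in the entries of Tlr2, Tlr3, Tlr5 and Tlr13. The upstream bases of Tlr2, Tlr3, Tlr13, both Tlr1 entries and the Tlr6 entry not shown overlap annotated exons of these genes, so they are not purely upstream sequence. For the Tlr1 and Tlr6 entries, shown or not, the bases just after the start did not match a GENCODE M21 transcript of the gene. Their starts are therefore less certain, and neither Tlr1 nor Tlr6 was a called member. A match is a description of the letters and not of a bound site.

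Among the surface receptors, Tlr2 (ENSMUSG00000027995, chromosome 3, 83836272 to 83841767) was the most abundant in both groups. It encodes the shared partner of the lipoprotein receptors and stood at 62.9, 65.0 and 59.7 FPKM with PBS and at 74.2, 70.9 and 67.8 FPKM with cisplatin. The ranges were close but did not overlap. Its log2 fold change of 0.18 (adjusted p = 0.0137, SE 0.048) turned to -0.61 and -0.80 under the scalings by pan-leukocyte and by Y-linked genes.

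Tlr1 and Tlr6, which encode the partners that let Tlr2 tell triacylated from diacylated lipoproteins, lie side by side on chromosome 5. Tlr1 (ENSMUSG00000044827, 64924679 to 64933563) stood at 10.4, 10.98 and 10.7 FPKM with PBS and at 22.2, 21.2 and 21.3 FPKM with cisplatin. Its mean FPKM was 2.02 times as high with cisplatin, and the log2 fold change of 0.95 (SE 0.041, 95% interval 0.85 to 1.05, adjusted p = 1.89e-06) lay just under the threshold, which it passed with a pseudocount of 0.1, with scaling by total recovered reads and under limma voom. Under the scalings by pan-leukocyte and by Y-linked genes it was 0.20 (adjusted p = 0.00855) and 0.014 (adjusted p = 0.827), and the second is no detected rise. Tlr6 (ENSMUSG00000051498, 64952031 to 64960097) had 7.84, 8.91 and 7.61 FPKM with PBS and 11.9, 10.6 and 10.5 FPKM with cisplatin, a log2 fold change of 0.40 (adjusted p = 0.00264, SE 0.074) that turned to -0.33 and -0.50 under the scalings by pan-leukocyte and by Y-linked genes. Within a library, Tlr1 FPKM was 1.32 ± 0.084 times Tlr6 FPKM with PBS and 1.96 ± 0.088 times with cisplatin (SD, n = 3 each). The partners therefore did not move in step.

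Tlr1 and Tlr6 are close copies of each other, so short reads cannot always be assigned to one of them. Of the windows of 50 bases in the longest Tlr1 transcript, 15.3% also occurred in another gene, Tlr6, and 12.6% of the Tlr6 windows occurred elsewhere, mostly in Tlr1. The longest stretch they share letter for letter runs over 229 coding bases (GRCm38, minus strand, chr5:64925537-64925765 in Tlr1 and chr5:64953828-64954056 in Tlr6). Its first 150 bases are shown because reads within them belong to either gene.
Tlr1 and Tlr6: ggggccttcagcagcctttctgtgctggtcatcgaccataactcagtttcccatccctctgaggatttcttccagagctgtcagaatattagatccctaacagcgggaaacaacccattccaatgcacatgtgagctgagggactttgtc
No such window was found for Tlr2, Tlr4, Tlr5, Tlr7, Tlr8, Tlr9 and Tlr13, and for Tlr3 1.56% were shared, with Gm45542.

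Tlr4 (ENSMUSG00000039005, chromosome 4, 66827584 to 66930284), the receptor for lipopolysaccharide, stood at 25.7, 29.7 and 26.5 FPKM with PBS and at 28.0, 26.3 and 26.2 FPKM with cisplatin. The groups overlapped, with PBS replicate 2 above all other libraries. The log2 fold change was -0.022 (95% interval -0.17 to 0.12, adjusted p = 0.765). It was positive when libraries were scaled by total recovered reads (0.062), under limma voom (0.066) and without PBS replicate 2 (0.038). Its log2 fold changes were -0.80 (adjusted p = 3.51e-05) under the scaling by pan-leukocyte genes and -0.98 (adjusted p = 2.82e-06) under that by Y-linked genes.

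Tlr5 (ENSMUSG00000079164, chromosome 1, 182954788 to 182976044), the flagellin receptor, did not pass the filter. It was listed at 0.271, 0.295 and 0.108 FPKM with PBS and at 0.295, 0.420 and 0.417 FPKM with cisplatin, from 8 to 33 reads per library, and the groups overlapped. Without a filter its log2 fold change was 0.17 (95% interval -0.046 to 0.39, adjusted p = 0.232), so that no difference was detectable at this depth. The remaining mouse receptor genes, which were not among the 10, were also low. Tlr12 stood at 1.40 ± 0.42 FPKM with PBS and 1.72 ± 0.31 FPKM with cisplatin (SD, n = 3 each, adjusted p = 0.326), and Tlr11 had 0 reads in the PBS libraries and 1, 0 and 2 in the cisplatin libraries.

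The order of the levels differed between the groups. With PBS it ran Tlr2, Tlr4, Tlr9, Tlr13, Tlr1, Tlr6, Tlr7, Tlr3, Tlr8 and Tlr5. Neighbours overlapped only between Tlr6 and Tlr7 and between Tlr7 and Tlr3. With cisplatin the order was Tlr2, Tlr13, Tlr9, Tlr4, Tlr7, Tlr1, Tlr6, Tlr8, Tlr3 and Tlr5, and only Tlr7 and Tlr1 overlapped. Tlr4 thus went from the second place to the fourth with no detected change of its own FPKM as deposited, although it was lower relative to pan-leukocyte genes, and Tlr3 dropped below Tlr8.

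The receptors were compared as shares within each library, which no scaling between libraries can alter. Summed FPKM of the 10 members was 157 ± 8.19 with PBS and 224 ± 9.81 with cisplatin (SD, n = 3 each). The endosomal members (Tlr3, Tlr7, Tlr8, Tlr9 and Tlr13) took 30.2%, 31.1% and 31.0% of it in the PBS libraries and 42.0%, 41.5% and 41.7% in the cisplatin libraries. The share of Tlr2 went from 39.8% ± 1.03 to 31.6% ± 0.37 and that of Tlr4 from 17.3% ± 0.55 to 12.0% ± 0.11, while Tlr7 went from 4.82% ± 0.25 to 10.2% ± 0.30 and Tlr13 from 9.29% ± 0.23 to 15.7% ± 0.34 (SD, n = 3 each). In each of these the groups lay apart.

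**Figure D2:**
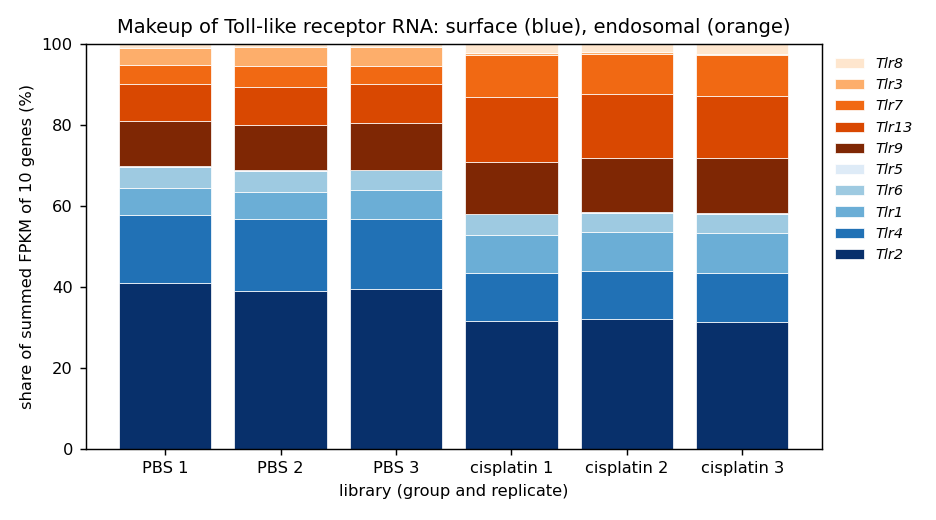
Share of the summed FPKM of the 10 genes taken by each gene, in percent, as stacked bars for the 6 libraries (surface receptors in blue, endosomal receptors in orange). The boundary between blue and orange lies near 69.2% in the PBS libraries and near 58.3% in the cisplatin libraries.

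Each receptor was also set against the 8 pan-leukocyte genes of its own library. Tlr7 stood at 6.21, 7.49 and 5.92 per 1000 pan-leukocyte FPKM with PBS and at 13.6, 11.8 and 11.7 with cisplatin. On this measure 4 members were higher with cisplatin without overlap (Tlr1, Tlr7, Tlr8 and Tlr13), 3 were lower (Tlr2, Tlr3 and Tlr4), and 3 overlapped (Tlr5, Tlr6 and Tlr9), while of all tested genes 8.77% were higher and 72.8% lower without overlap. The 10 members together stood at 135 ± 10.1 with PBS and 122 ± 7.19 with cisplatin (SD, n = 3 each), and the groups overlapped. The scalings of the libraries used the geometric mean of the 8 genes and not their sum, so they can differ from this measure. Tlr9, for example, was 1.05 times as high per summed pan-leukocyte FPKM but at -0.062 under the scaling. Scaling by the 8 pan-leukocyte genes moved the median log2 fold change of all tested genes from -0.0011 to -0.67. Scaling by the 4 Y-linked genes, which all rose, moved it to -0.83. With these scalings Tlr7 (0.73 and 0.55), Tlr8 (0.86 and 0.73) and Tlr13 (0.45 and 0.26) remained higher at an adjusted p under 0.05 in both. Tlr1 passed in the first only.

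**Figure D3:**
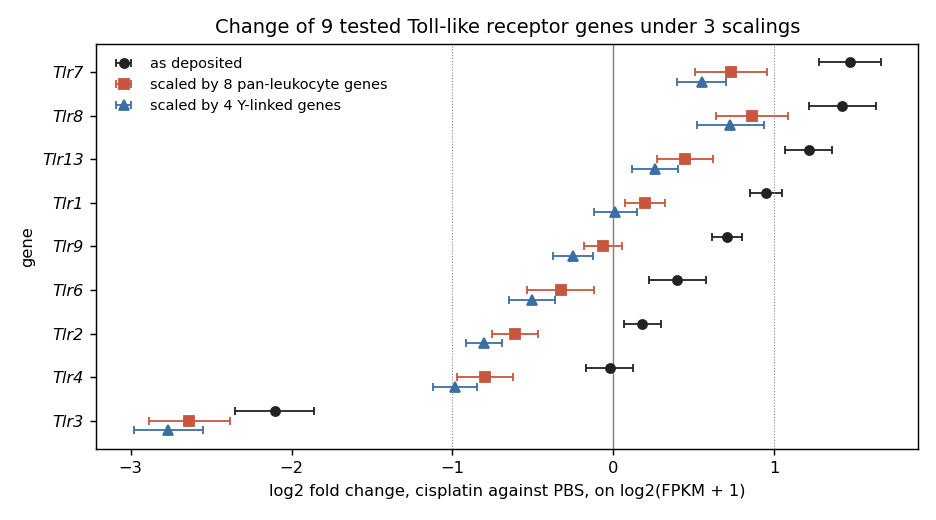
Log2 fold change of the 9 tested Toll-like receptor genes, cisplatin against PBS, with 95% intervals, for FPKM as deposited (black circles) and after scaling by 8 pan-leukocyte genes (red squares) or 4 Y-linked genes (blue triangles). Dotted lines mark 2-fold. Tlr7, Tlr8 and Tlr13 stay to the right of 0 and Tlr3 to the left under all 3, whereas Tlr2, Tlr6 and Tlr9 change sides.

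The other genes of the pathway were counted in lists and are read against all tested genes. In FPKM as deposited, 32.9% of all tested genes rose, 35.1% fell, 4.67% were called higher and 11.3% lower. Under the scaling by pan-leukocyte genes 5.93% rose, 77.6% fell, 0.885% were called higher and 29.1% lower, with a median of -0.67. Under the scaling by Y-linked genes 3.71% rose, 82.6% fell, 0.632% were called higher and 38.5% lower, with a median of -0.83. A list count close to these shares is no result about the list.

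Co-receptors and accessory surface proteins, some of which present ligands to the receptors, were mostly higher with cisplatin in FPKM as deposited. Of 10 genes in this list, 9 rose and 1 fell, and 5 were called higher and 1 lower. Among the 5 called higher, Mertk and Itgam also belong to the list of 10 macrophage genes, all of which rose. Under the scalings by pan-leukocyte and by Y-linked genes 6 and 5 rose, 2 and 3 fell, and 2 and 1 were called higher, and the list median of 0.99 became 0.40 and 0.21. Cd14, which hands lipopolysaccharide to Tlr4, stood at 132, 121 and 122 FPKM with PBS and at 202, 208 and 198 FPKM with cisplatin. The groups lay apart, and the log2 fold change of 0.69 (adjusted p = 1.12e-05) turned to -0.10 and -0.30 under these scalings. Ly96, which encodes the lipopolysaccharide-binding subunit of the Tlr4 complex, had a log2 fold change of 0.37 (adjusted p = 0.00654) that turned to -0.36 and -0.54. Cd180, a receptor relative that acts on Tlr4 signalling, rose from 6.69 ± 0.67 to 21.05 ± 1.29 FPKM (SD, n = 3 each, adjusted p = 4e-06 for a log2 difference of 1.52), a call lost under these scalings (0.79 and 0.61). The scavenger receptor gene Cd36 (log2 fold change 2.16) and the fungal glucan receptor gene Clec7a (log2 fold change 1.80) rose the furthest on the log2(FPKM + 1) scale. In mean FPKM the low gene Mertk (0.292 ± 0.15 and 1.72 ± 0.18 FPKM, SD, n = 3 each) was 5.90 times as high with cisplatin, against 4.87 times for Cd36. Lbp, the gene of a lipopolysaccharide-binding plasma protein, fell from 75.9 ± 1.79 to 7.09 ± 0.32 FPKM (SD, n = 3 each, adjusted p = 4.47e-08 for a log2 difference of -3.25).

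The tested genes that fold, carry and process the receptors stayed within 2-fold in FPKM as deposited, and 2 were called lower under each of the scalings by pan-leukocyte and by Y-linked genes. The list is not confined to endosomal members, since it holds Ticam2, which acts with Tlr4 and is counted again among the adaptors. Unc93b1, the chaperone that takes the endosomal members to endosomes, went from 93.9 ± 1.44 to 121 ± 2.08 FPKM (SD, n = 3 each, adjusted p = 4.55e-05 for a log2 difference of 0.37), a difference that turned to -0.43 and -0.62 under these scalings. Of 21 tested genes in this list 14 rose and 2 fell, with log2 fold changes from -0.42 to 0.89 and a median of 0.31, whereas under each of these scalings 20 fell and the medians were -0.48 and -0.64, above those of all tested genes. Atp6v0d2, a proton pump subunit gene of this list, was too low to be tested (0.231 ± 0.19 and 0.937 ± 0.55 FPKM, SD, n = 3 each). The list of endosomal nucleases, which trim the nucleic acid ligands, also holds the nucleic acid transporter genes Sidt1 and Sidt2, and of its 5 tested genes, Sidt2 among them, 4 rose (median 0.49), against 1 and then none under the 2 rescalings, where 2 fell (medians 0.071 and -0.065).

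The adaptors moved in different directions. Myd88 stood at 25.4, 25.6 and 24.9 FPKM with PBS and at 37.1, 39.2 and 36.8 FPKM with cisplatin (log2 fold change 0.56, adjusted p = 1.74e-05). Ticam1, which encodes TRIF, the only adaptor of Tlr3, stood at 13.8, 12.6 and 13.5 FPKM with PBS and at 8.98, 9.10 and 9.49 FPKM with cisplatin (log2 fold change -0.49, adjusted p = 0.000136). The groups lay apart for both. Tirap, the bridge from Tlr2 and Tlr4 to MyD88, had a log2 fold change of 0.19 (adjusted p = 0.00758), and Ticam2, the bridge from Tlr4 to TRIF, one of 0.21 (adjusted p = 0.12). These values depended on the scale, since all 5 tested adaptors fell under both rescalings, as did 77.6% and 82.6% of all tested genes, with Myd88 at -0.22 and -0.41 and Ticam1 at -1.22 and -1.40. Of the pathway genes named here, Sidt1, Sidt2, Myd88, Tirap, Ticam2, Cd180, Mertk, Itgam, Btk, Irf1, Irf7, Usp18, Cxcl10, Vcan and Hspd1 overlap other genes. Since the use of strand in counting is not known, their reads are less certain.

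Among 21 tested kinases and ubiquitin enzymes 8 rose and 6 fell (median 0.11) in FPKM as deposited. Under the scalings by pan-leukocyte and by Y-linked genes 1 rose in each, 19 and 20 fell, 6 and 7 were called lower, and the medians were -0.65 and -0.84, close to those of all tested genes (-0.67 and -0.83). Btk, a tyrosine kinase of B cell and myeloid receptor signalling, was called higher (13.8 ± 1.22 to 38.4 ± 1.39 FPKM, SD, n = 3 each), and Tab1, an activator of the kinase TAK1, lower (log2 fold change -1.13). The call of Btk was lost under these scalings (0.64 and 0.46). Transcription factors below the receptors had 6 rises and 6 falls among 16 tested (median 0.070), whereas under these scalings 15 fell in each, 5 and 7 were called lower, and the medians were -0.69 and -0.87, again close to those of all tested genes. The falls past 2-fold in FPKM as deposited were those of Irf7, the main interferon regulatory factor behind Tlr7 and Tlr9, which went from 102 ± 5.38 to 16.1 ± 0.32 FPKM (SD, n = 3 each, adjusted p = 7.06e-08 for a log2 difference of -2.59), and of Irf1 (log2 fold change -1.29). Irf7 and its upstream receptor Tlr7 moved in opposite directions. Negative regulators had 9 rises and 10 falls among 23 (median 0.096), whereas under these scalings 3 rose in each, 18 and 19 fell, 9 and 10 were called lower, and the medians were -0.67 and -0.86, likewise close to those of all tested genes. Cd200r1 (1.51) and Dok3 (1.35) had the largest positive and Usp18 (-1.99) and Tnip3 (-1.38) the largest negative log2 fold changes, and the calls of Cd200r1 (0.82 and 0.65) and Dok3 (0.57 and 0.38) were lost under these scalings.

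Genes that Toll-like receptors induce moved both ways in FPKM as deposited, where 11 of 27 tested rose and 13 fell. Their median log2 fold change was -0.16, and 2 were called higher and 9 lower, against 4.67% and 11.3% of all tested genes. Under the scaling by pan-leukocyte genes 3 rose and 21 fell (median -0.96), and under that by Y-linked genes 1 rose and 23 fell (median -1.15), while 77.6% and 82.6% of all tested genes fell. The costimulatory genes Cd80 (log2 fold change 1.11) and Cd86 (1.06) were the ones called higher, and the count was 1 without PBS replicate 2 and 3 without PBS replicate 1, PBS replicate 3 or cisplatin replicate 3. Both calls were lost under the scalings by pan-leukocyte and by Y-linked genes, where Cd80 stood at 0.40 and 0.22 and Cd86 at 0.41 and 0.25. Nos2, the inducible nitric oxide synthase gene (-5.11), and Cxcl10, an interferon-inducible chemokine gene (-3.41), had the largest falls. Of the proposed host protein ligands 5 of 8 tested rose and 3 fell, with a median of 0.53, whereas under these scalings 2 and 1 rose, 4 and 5 fell, and the medians were -0.25 and -0.44. In every setting 3 were called lower, against 11.3% of all tested genes as deposited and 29.1% and 38.5% under these scalings. The list shares genes with that of neutrophils. The versican gene Vcan (3.19) and the chaperonin gene Hspd1 (1.01) were called higher, a count of 2 that became 1 without PBS replicate 2, without cisplatin replicate 1 and under both of these scalings (Hspd1 0.21 and 0.021). The proteoglycan genes Bgn (-1.82) and Dcn (-1.68) fell the furthest.

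The cytosolic sensors, which read nucleic acids outside endosomes, were set beside them. Of 11 tested, 2 rose and 8 fell, with a median of -0.98 and 5 called lower, against 11.3% of all tested genes. Under each of the scalings by pan-leukocyte and by Y-linked genes 8 were called lower, against 29.1% and 38.5% of all tested genes. Ifih1, which like Tlr3 recognises long double-stranded RNA, went from 26.4 ± 0.84 to 4.62 ± 0.40 FPKM and Ddx58 from 94.5 ± 3.93 to 24.1 ± 1.03 FPKM (SD, n = 3 each, with log2 differences of -2.29 and -1.93). The receptor list had a median of 0.71 over its 9 tested genes and all tested genes one of -0.0011. These medians are descriptions, and the difference between the lists was not tested.

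**Figure D4:**
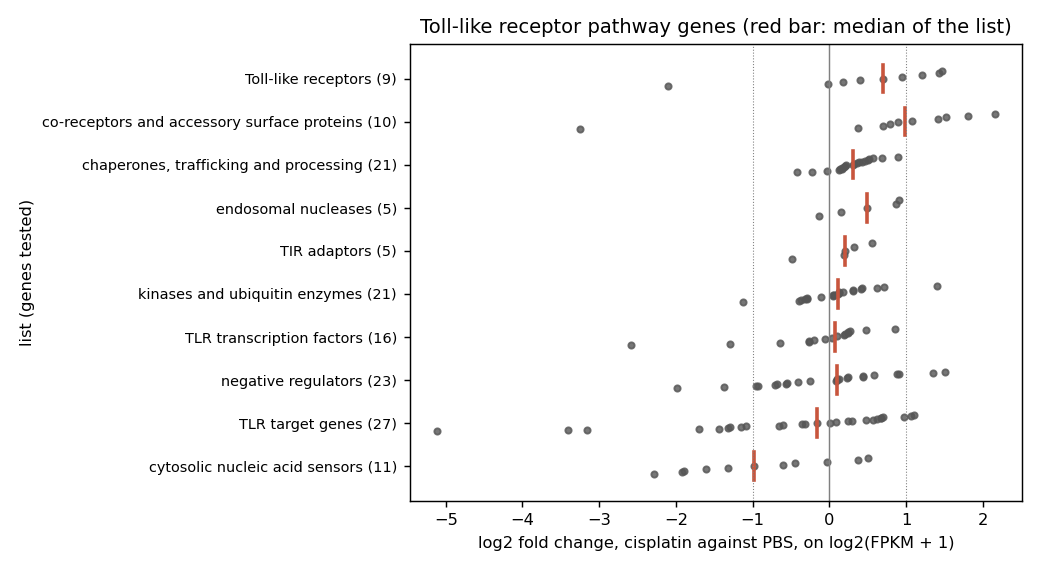
Log2 fold change, cisplatin against PBS, of the tested genes in the receptor list and in 9 lists of the pathway and of cytosolic sensors, each point a gene and each red bar the median of its list. Dotted lines mark 2-fold. The receptors (median 0.71) and co-receptors (0.99) lie mostly to the right of 0 and the cytosolic sensors (-0.98) mostly to the left, on the scale of FPKM as deposited. Under the scalings by pan-leukocyte and by Y-linked genes the receptor median turns to -0.062 and -0.25.

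Over the 6 libraries, the genes with the pattern nearest to that of Tlr7 were Idi1, Kcnk6 and Btk, at distances of 0.099, 0.12 and 0.13 between log2 values centred on their means, among 11334 protein-coding genes. Nearest to Tlr3 were Osmr, Mrgprf and Nckap1 (0.091, 0.14 and 0.15). The 6 points share the 2 groups, and the distances are descriptions.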

How the data were processed

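In all, 6 libraries of poly-T selected RNA were analysed, 3 per group as the sample labels give them. The members and gene lists were chosen with earlier results of these data known. The authors deposited FPKM values per gene. The study's methods name LifeScope for alignment and counting, while the submitters' processing notes list fastp, HISAT2 2.0.5, featureCounts 1.5.0-p3 and mm10. Whether counting used strand is not given in the sources used here.

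The study tested counts with a count model, but the deposited unit is FPKM. Genes with at least 1 FPKM in at least 3 libraries (13441) were therefore tested as log2(FPKM + 1) in limma 3.58.1 (R 4.3.3; lmFit, eBayes with a trend), with group as the only term and Benjamini-Hochberg adjustment. "Rose" and "fell" mean an adjusted p under 0.05, and "called" also a 2-fold change. Fold changes on this scale understate those of low genes. Of values worth fewer than 200 reads, 100% came out as whole reads (tolerance 0.02), and limma voom was run on those reads as an alternative. The FPKM denominator was 103.7% to 104.1% of recovered reads with cisplatin and 97.4% to 98.7% with PBS. The fitting code was tested on simulated data.

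Named were all members, Tlr11, Tlr12, Myd88, Tirap, Ticam1, Ticam2, Unc93b1, Cd14, Ly96 and Cd180, up to 2 called genes with the largest rise and fall in each other pathway list, the genes nearest in pattern, and fixed markers. Mertk, Itgam, Atp6v0d2, Sidt1, Sidt2 and Bst2 were named after their values were seen. Alternatives were a pseudocount of 0.1, no filter, other scalings, a replicate block, each library left out and the adjusted p alone. All 10 members had the same coordinates in GENCODE M21 (GRCm38).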

Additional observations from a re-analysis of the deposited data

How the results depend on the processing

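Over 15 other settings, Tlr3 was called lower in each, with log2 fold changes from -2.90 to -2.04. Under the scalings by Y-linked and by pan-leukocyte genes 0 members were called higher by limma (at an unadjusted p under 0.05, 3 rose and 5 fell with the first, and 4 and 4 with the second, where 83% and 78.1% of all tested genes fell), against 3 as reported, 3 with each library left out and 7 at the adjusted p alone. The log2 fold changes were -0.80 and -0.61 for Tlr2, -0.50 and -0.33 for Tlr6, -0.25 and -0.062 for Tlr9, 0.55 and 0.73 for Tlr7, 0.73 and 0.86 for Tlr8, and 0.26 and 0.45 for Tlr13. Tlr1 passed 2-fold with a pseudocount of 0.1 (1.01), with scaling by total recovered reads (1.03) and under limma voom (1.10). Tlr4 turned to 0.062 with total reads, 0.066 under voom and 0.038 without PBS replicate 2 (-0.062 to 0.038 over libraries left out). Of all genes, 628 were called higher, against 973 with a pseudocount of 0.1, 85 and 119 under the Y-linked and pan-leukocyte scalings, 1227 under voom, 4424 at the adjusted p alone and 622 to 671 with a library left out. Called lower were 1514, against 5181, 3915 under those scalings, 4721 at the adjusted p alone and 1513 to 1531 with a library left out. The higher share of calls was 29.3%, and 1.61%, 2.95% and 39.7% under the Y-linked, pan-leukocyte and voom settings. Of 330 list counts, 300 stayed within 1.5 times, where a count of 0 in both settings also passed. Most of the counts that did not stay belonged to the scalings by Y-linked and by pan-leukocyte genes. There the negative regulators called lower went from 2 to 10 and 9. Deviations of same-numbered libraries correlated at -0.10, -0.086 and -0.024, so no pairing by number was seen. With 3 libraries per group a shared effect smaller than the spread between libraries would not show, so the check cannot settle it. With the replicate number as a block, 3 members were called higher and 1 lower, and of all genes 625 and 1515, of which 622 and 1513 were shared with the reported calls. The cause of these changes was not tested. Depth limits Tlr5, with 8 to 33 reads per library.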
